A study of Bos taurus with 30 samples.

Results

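IL6ST (ENSBTAG00000017745) and OSM (ENSBTAG00000016163) encode a receptor chain and a ligand of the gp130 cytokine system. They are 2 of the 27607 genes counted in peripheral white blood cells (PWBCs) of cattle, the nucleated cells of the buffy coat of blood. Both were chosen by their measured values, namely a transcript abundance that was lower in jugular blood stored for 24 h than in jugular blood processed at 1 h, so that values from that contrast are given as a description, without a test. IL6ST lies on the forward strand of chromosome 20 (ARS-UCD1.2, 23191785 to 23250938). OSM lies on the reverse strand of chromosome 17 (ARS-UCD1.2, 69282366 to 69286795). The annotation lists both as protein coding, with transcripts of 4437 nucleotides for IL6ST and 2263 nucleotides for OSM.

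The protein gp130, the product of IL6ST, is the shared signaling chain of the receptors for interleukin 6, leukemia inhibitory factor, oncostatin M and related cytokines. A bound ligand brings gp130 together with a partner chain, and the attached Janus kinases then phosphorylate STAT3 and feed the MAP kinase cascade. In blood, resting T cells are known to carry gp130, whereas oncostatin M, the product of OSM, is known as a cytokine released by activated neutrophils, monocytes and T cells.

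The samples came from 5 estrus-synchronized Angus x Simmental heifers averaging 14 months of age. Each heifer gave 1 tube of coccygeal (tail vein) blood, which was processed at 1 h, and 5 tubes of jugular (neck vein) blood, which were kept at 4 °C and processed at 1, 3, 6, 8 or 24 h. No animal was treated differently from another, so that the vein and the time in storage are the factors compared. The heifers are named A to E for the 5 coccygeal libraries, the 5 jugular libraries of 1 h and the 5 of 24 h. The other 15 libraries are those of 3, 6 and 8 h (5 of each), which could not be told apart in the count table or tied to a heifer, and they are treated as 1 group, 3-8 h.

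The libraries held 12412619 to 19492274 counts. In CPM, the count scaled to the library total, 3 counts amount to 0.154 in the deepest and 0.242 in the shallowest library. Markers of T cells, B cells, monocytes and cytotoxic cells were found in every group. Of the marker lists, 6 of 10 T cell genes, 1 of 6 B cell genes, 2 of 5 monocyte genes and 1 of 5 natural killer cell genes could be matched to a name. For neutrophils and platelets 0 genes were matched, and their levels were not analysed here. Libraries of the same heifer resembled each other: across genes, which do not count as replicates, their deviations from the group means had r between 0.44 and 0.82 for the veins and between 0.53 and 0.67 for 1 h and 24 h.

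IL6ST was the more abundant of the pair in all 4 groups. Per kilobase of transcript, its mean level was 15.8 ± 1.81 CPM in coccygeal blood at 1 h (SD, n = 5) and 15.1 ± 4.17 in jugular blood at 1 h (SD, n = 5). It was 12.6 ± 2.32 CPM per kilobase at 3-8 h (SD, n = 15) and 8.95 ± 2.8 at 24 h (SD, n = 5). OSM had 1.5 ± 0.467 CPM per kilobase in coccygeal blood (SD, n = 5), 1.67 ± 0.491 in jugular blood at 1 h (SD, n = 5), 1.49 ± 0.842 at 3-8 h (SD, n = 15) and 0.854 ± 0.363 at 24 h (SD, n = 5). The receptor chain was therefore between 8.47 and 10.6 times as abundant as the ligand per kilobase. All other levels are given in CPM, which compares 1 gene between libraries.

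In coccygeal blood at 1 h, IL6ST had 57.3 CPM in heifer A, 68.4 in heifer B, 72.9 in heifer C, 77.8 in heifer D and 75.0 in heifer E. In jugular blood at 1 h it had 45.7 CPM in heifer A, 57.1 in heifer B, 95.4 in heifer C, 66.8 in heifer D and 70.6 in heifer E. Heifer A was the lowest in both veins and heifer B the next lowest, while the jugular library of heifer C was the highest of all 30 libraries. At 3-8 h IL6ST ranged from 45.4 to 81.8 CPM with a median of 52.7. At 24 h it had 24.5 CPM in heifer A, 38.0 in heifer B, 56.8 in heifer C, 32.8 in heifer D and 46.3 in heifer E. Heifer A was again the lowest and heifer C again the highest, and 3 of the 5 libraries of 24 h lay below every library of the other groups. The ranges of 1 h and 24 h in jugular blood nevertheless overlapped, since heifers C and E had more IL6ST at 24 h than heifer A had at 1 h.

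OSM had 3.88 CPM in heifer A, 3.93 in heifer B, 2.39 in heifer C, 2.15 in heifer D and 4.57 in heifer E in coccygeal blood at 1 h. In jugular blood at 1 h it had 4.67 CPM in heifer A, 3.41 in heifer B, 2.48 in heifer C, 3.13 in heifer D and 5.16 in heifer E. Heifer E was the highest, and heifers C and D were the 2 lowest, in both veins. At 3-8 h OSM ranged from 1.53 to 9.59 CPM with a median of 3.11, and 1 library stood apart, because the next highest had 4.51 CPM. At 24 h it had 1.03 CPM in heifer A, 3.02 in heifer B, 1.69 in heifer C, 1.39 in heifer D and 2.52 in heifer E. The order of the heifers differed here from that at 1 h, with heifer A the lowest and heifer B the highest, and the ranges of 1 h and 24 h overlapped.

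**Figure D1:**
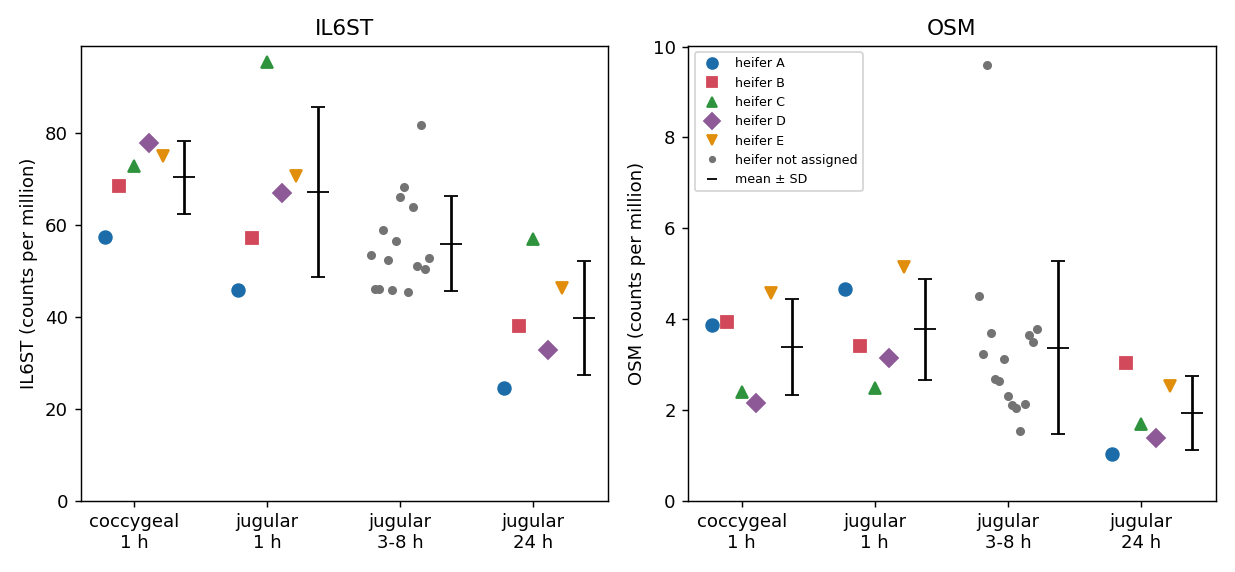
IL6ST (left) and OSM (right) in CPM, from 0, for each library of the 4 groups on the horizontal axis. Colored symbols are heifers A to E, gray points the 15 libraries of 3-8 h, and bars the mean ± SD. IL6ST lay between 24.5 and 56.8 CPM at 24 h, and 1 library of 3-8 h had 9.59 CPM of OSM.

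The counts behind these levels differ in size. IL6ST had between 403 and 1462 counts in a library, and counting error alone would give a coefficient of variation of 2.92% to 4.17% within a group. The coefficient of variation measured was 11.4% in coccygeal blood, 27.6% in jugular blood at 1 h, 18.4% at 3-8 h and 31.3% at 24 h, larger than the counting error in each group. OSM had between 17 and 158 counts, for which counting error alone would give 13.2% to 19.6%. The measured coefficient of variation of OSM was 31.2% in coccygeal blood, 29.4% in jugular blood at 1 h, 56.6% at 3-8 h and 42.5% at 24 h. Without the library of 158 counts, OSM at 3-8 h varied by 29.1%. These limits cover counting error only, and a single OSM value is less precise than a single IL6ST value.

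In order of mean level, IL6ST was highest in coccygeal blood at 1 h, with 70.3 ± 8.01 CPM (SD, n = 5), followed by jugular blood at 1 h with 67.1 ± 18.5 (SD, n = 5), at 3-8 h with 55.9 ± 10.3 (SD, n = 15) and at 24 h with 39.7 ± 12.4 (SD, n = 5). The first 2 groups in this order did not differ beyond their spread. The step from jugular blood at 1 h to 3-8 h was smaller than the SD at 1 h but larger than that at 3-8 h. These SDs are across libraries and leave out the pairing by heifer. The step from 3-8 h to 24 h was larger than the SD of either group. OSM was highest in jugular blood at 1 h, with 3.77 ± 1.11 CPM (SD, n = 5), followed by coccygeal blood with 3.38 ± 1.06 (SD, n = 5), 3-8 h with 3.37 ± 1.91 (SD, n = 15) and 24 h with 1.93 ± 0.821 (SD, n = 5). The first 3 groups did not differ beyond their spread. The step to 24 h was smaller than the SD of the 3-8 h group with all 15 libraries. Without the highest library that group had 2.92 ± 0.849 CPM (SD, n = 14), and the step was then larger than either SD.

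The coccygeal and jugular libraries of 1 h ask whether the vein matters. They were fitted with the heifer as a block, and a gene was called when its Benjamini-Hochberg adjusted p-value (FDR) was under 0.05 in edgeR and in DESeq2 and its log2 fold change in edgeR was beyond 0.5 in either direction. Of the 14018 genes tested 0 (0%) were called. In edgeR and in DESeq2 alike 0 genes had an FDR under 0.05, and 278 had an unadjusted p under 0.05 in edgeR. IL6ST was 25.5% higher in coccygeal than in jugular blood in heifer A, 19.9% in heifer B, 16.4% in heifer D and 6.34% in heifer E, and it was lower in heifer C, at 0.764 times the jugular level. In edgeR its log2 fold change came to 0.10 (adjusted p = 0.9997). In DESeq2 it was 0.11 with a standard error of 0.10, and a 95% interval from -0.09 to 0.30. OSM was lower in coccygeal blood in 4 of 5 heifers, with log2 differences from -0.52 in heifer D to -0.05 in heifer C, and higher by 0.20 in heifer B. In the edgeR fit OSM stood at -0.16 (log2 fold change, adjusted p = 0.9997), and the 95% interval in DESeq2 ran from -0.64 to 0.32. Neither gene passed the test between the veins. With 1 heifer left out, the log2 fold change of IL6ST ranged from 0.05 (without heifer A) to 0.22 (without heifer C), and was 0.06 without heifer B. That of OSM ranged from -0.26 (without heifer B) to -0.08 (without heifer D). The jugular libraries of 1 h entered the choice of the 2 genes, and the coccygeal libraries did not.

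The libraries of 3-8 h show the genes in storage before 24 h. They entered as 15 separate libraries although they came from 5 heifers, and no heifer block could be fitted. The p-values of this and the next comparison are therefore not those of independent animals. At 24 h against 1 h in jugular blood, leaving out the block cut the called genes from 361 to 30. A count of 0 without a block thus does not show that no gene changed. Against coccygeal blood of 1 h, a contrast in which neither group entered the choice of genes, 0 of 14018 genes (0%) were called, and 182 had an unadjusted p under 0.05 in edgeR. This contrast changes the vein along with the storage time, so that vein and storage cannot be told apart in it. The log2 fold change of IL6ST was -0.33 in edgeR (adjusted p = 0.99998), and its unadjusted p in edgeR was 0.0088. In edgeR 26 of the 14018 genes had a smaller p-value. In DESeq2 the change was -0.34 with a standard error of 0.12 and a 95% interval from -0.57 to -0.11, before any adjustment for the number of genes. In the same contrast the 6 matched T cell markers had log2 fold changes from -0.51 (LEF1) to -0.25 (CD8A) in edgeR. Their part in the IL6ST difference was not tested. For OSM the log2 fold change was -0.01 in edgeR, at an adjusted p of 0.99998, with a 95% interval from -0.64 to 0.66 in DESeq2. Its sign turned with the scaling. Without the 3-8 h library of 9.59 CPM, which was left out after its value had been seen, the log2 fold change of OSM was -0.21 and that of IL6ST -0.31.

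Against jugular blood of 1 h, which entered the choice of genes, the log2 fold change of IL6ST at 3-8 h was -0.26 in edgeR (adjusted p = 0.9997), with a 95% interval from -0.53 to 0.01 in DESeq2. That of OSM was -0.16 in edgeR (adjusted p = 0.9997), with a 95% interval from -0.80 to 0.50. Of the 14018 genes, 0 (0%) were called and 173 had an unadjusted p under 0.05 in edgeR. The value of IL6ST leaned on 1 library of 1 h: without that of heifer C the log2 fold change was -0.10. That of OSM was -0.36 without the 3-8 h library of 9.59 CPM, -0.03 without the library of heifer E at 1 h and -0.07 without that of heifer A. Neither gene passed the test.

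After 24 h, IL6ST was lower than in the jugular library of 1 h in 5 of 5 heifers. The level at 24 h was 0.537 times that at 1 h in heifer A, 0.665 times in heifer B, 0.596 times in heifer C, 0.491 times in heifer D and 0.656 times in heifer E. The mean difference was -0.77 ± 0.19 on the log2 scale (SD, n = 5), and the fit of edgeR gave a log2 fold change of -0.77, or 0.586 times the level at 1 h. OSM was lower at 24 h in 5 of 5 heifers too, but by amounts that ranged more widely. Its level at 24 h was 0.222 times that at 1 h in heifer A, 0.886 times in heifer B, 0.681 times in heifer C, 0.443 times in heifer D and 0.490 times in heifer E. The mean difference was -0.97 ± 0.71 (log2, SD, n = 5), and the log2 fold change in edgeR was -0.98, or 0.508 times the level at 1 h. In heifer B, 63 counts at 1 h stood against 55 at 24 h, and in heifer A 91 stood against 17.

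Since this contrast chose both genes, nothing is read from their place in it. Of the 14018 genes, 361 were called (2.58%), 203 higher and 158 lower (1.13%). A fall in 5 of 5 heifers was seen in 1920 genes (13.7%). Ordered by log2 fold change, 155 genes lay below IL6ST and 75 below OSM. The coccygeal libraries of 1 h gave another baseline for the same libraries of 24 h. Against them the difference of IL6ST was -0.87 ± 0.37 and that of OSM -0.81 ± 0.58 (log2, SD, n = 5). Both genes were lower in 5 of 5 heifers, and the share of all genes that were so is not given for this contrast. The libraries of 24 h entered the choice of the genes, so this count is no separate support. In this contrast the vein differs along with the storage time. Against 3-8 h, the log2 fold change was -0.49 for IL6ST and -0.80 for OSM in edgeR, given without a test because the libraries of 24 h are the same. In that contrast, which was also fitted without a heifer block, 28 genes (0.200%) were called.

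**Figure D2:**
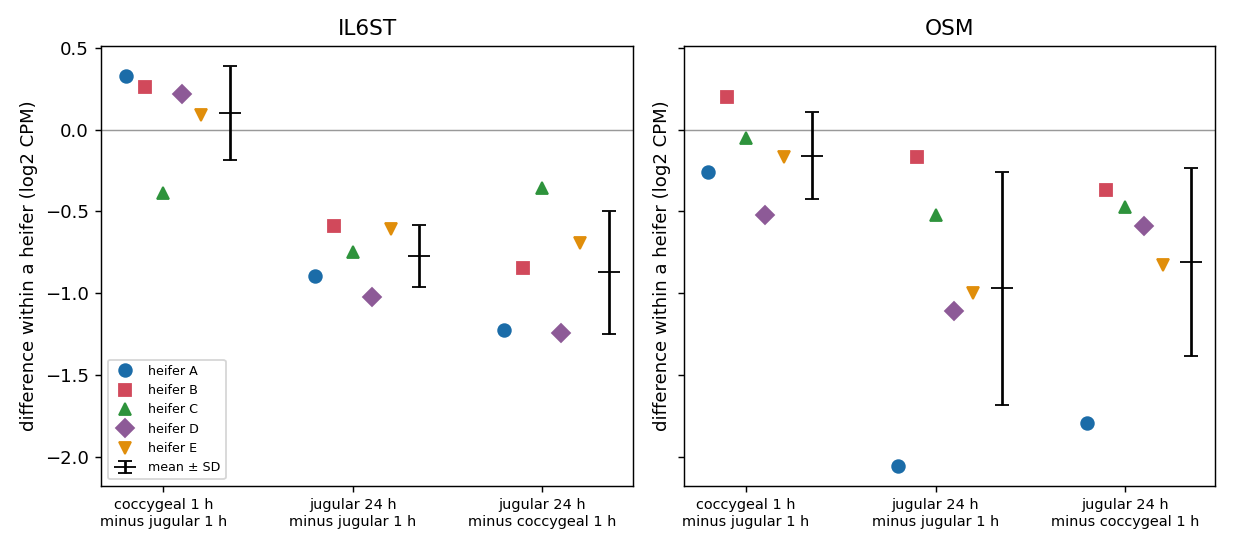
Differences within each heifer in log2 CPM (vertical axis, prior count of 2) for IL6ST (left) and OSM (right), with the 3 contrasts of libraries that could be paired on the horizontal axis. Symbols are heifers and bars the mean ± SD. Every difference between 24 h and 1 h lies below 0, from -1.02 to -0.59 for IL6ST and from -2.05 to -0.17 for OSM in jugular blood.

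The other genes of the pathway were taken from lists of ligands, receptor chains, proteases, kinases, adaptors, inhibitors, targets and related receptors. Of 70 genes in these lists, 14 could be matched to a name, namely IL6ST, OSM and 12 others, and all 12 passed the filter on low counts. At 24 h against 1 h in jugular blood, 1 of the 12 was called, lower, and 0 were called higher. Names came from tables rich in called genes, and of the 1738 named genes 145 (8.34%) were called, so that 1 of 12 is near the share of named genes. The median log2 fold change of the 12 was -0.21, against 0.01 for all genes tested. Of the 12, 10 were below 0, also with TMM scaling and in DESeq2, against 48.1% of all genes tested. The median of the named genes is not given here, and 95 of their 145 called genes were lower. These values are therefore not read as a shift of the pathway. At 3-8 h against 1 h, 0 of the 12 were called, with a median of -0.06.

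Of the genes that act next to gp130, 6 were matched and 0 were called at 24 h. ADAM17, a protease that sheds cytokine receptors from the cell surface, had 65.1 ± 4.08 CPM at 1 h and 56.2 ± 5.08 at 24 h (SD, n = 5 each), or -0.22 as a log2 fold change (edgeR adjusted p = 0.0440, DESeq2 adjusted p = 0.0748). JAK1, a Janus kinase that binds gp130, had 665 to 704 CPM in the 5 jugular libraries of 1 h and 585 to 630 CPM in those of 24 h. These ranges did not overlap, and how many of all genes were separated in this way was not counted. Between 1 h and 24 h in jugular blood, 28.1% of all genes tested had an unadjusted p under 0.05 in edgeR. JAK1 was not called, at -0.16 on the log2 scale (edgeR adjusted p = 0.0780). PTPN11, the phosphatase SHP2 that links gp130 to the MAP kinase cascade, stood at -0.18 (log2 fold change, edgeR adjusted p = 0.0955). The docking proteins GAB1 and GAB2 had log2 fold changes of 0.08 and -0.31 (edgeR adjusted p = 0.660 and 0.322). PIAS4, a member of a family of STAT inhibitors, had 0.13 (edgeR adjusted p = 0.266).

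Of the genes known as targets of STAT3 or of related signals, 3 were matched and 0 were called at 24 h. PIM1, a kinase induced by many cytokines, had 179 ± 23.1 CPM at 1 h and 174 ± 31.6 at 24 h (SD, n = 5 each). IL4R, the receptor chain for interleukin 4, stood at -0.20 (log2 fold change, edgeR adjusted p = 0.0380, DESeq2 adjusted p = 0.0502). BCL6, a transcriptional repressor, had -0.32 (edgeR adjusted p = 0.481), and its mean of 98.2 CPM at 1 h held the library of heifer A at 227 CPM, where the next highest had 75.5.

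Of the 3 related receptor chains that were matched, 1 was called. IL7R, the interleukin 7 receptor chain of T cells, fell from 302 ± 71.2 CPM at 1 h to 167 ± 60.7 at 24 h (SD, n = 5 each). On the log2 scale this change was -0.90 (edgeR adjusted p = 0.0106, DESeq2 adjusted p = 5.96e-13). IL2RA, the interleukin 2 receptor chain of activated and regulatory T cells, had 55.8 ± 22.5 and 37.2 ± 19.7 CPM (SD, n = 5 each), or -0.61 on the log2 scale (edgeR adjusted p = 0.107). IL23R, a chain of the interleukin 23 receptor, stood at -0.93 (log2 fold change, edgeR adjusted p = 0.0678) at a level of only 1.62 ± 0.689 CPM at 1 h (SD, n = 5). DESeq2 gave IL23R no adjusted p.

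**Figure D3:**
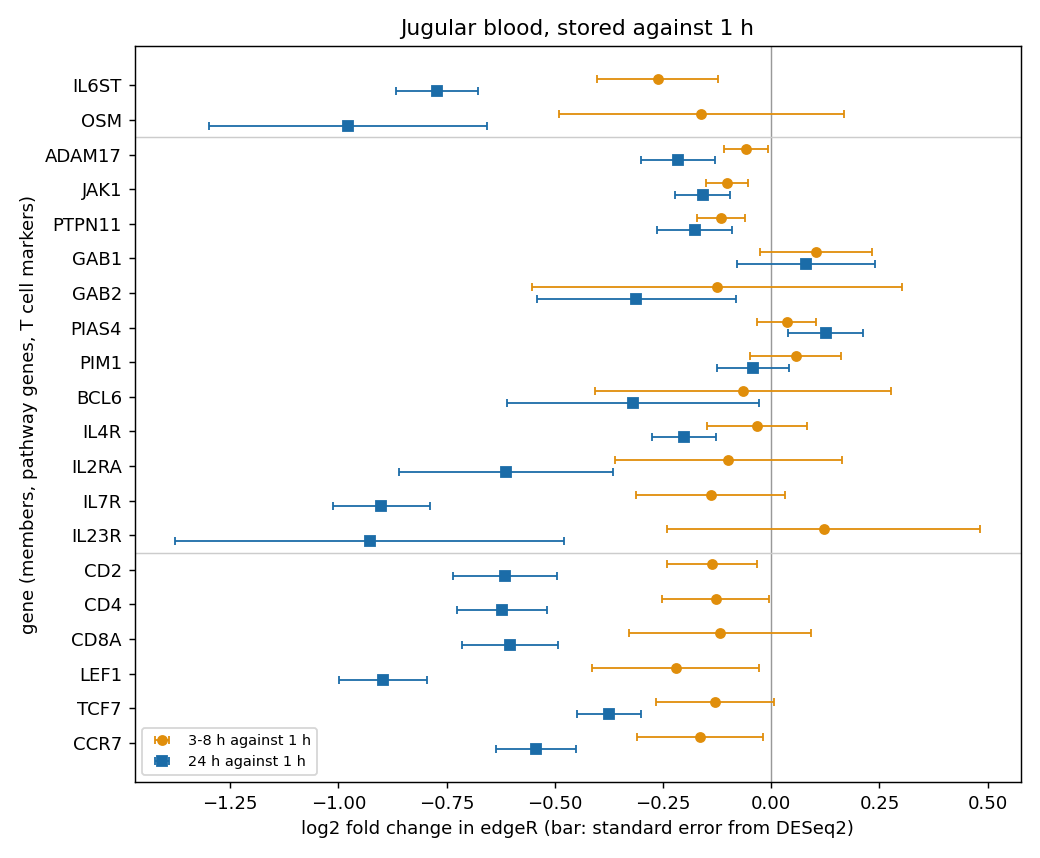
Log2 fold changes from edgeR (horizontal axis) of IL6ST and OSM, 12 pathway genes and 6 T cell markers (vertical axis) in jugular blood at 3-8 h (circles) and 24 h (squares) against 1 h. Bars are standard errors from DESeq2. At 24 h IL7R, LEF1 and IL6ST lie at -0.90, -0.90 and -0.77, whereas JAK1 and PIM1 lie at -0.16 and -0.04.

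Markers of T cells moved with IL6ST. Of the 6 that were matched, 5 (CD2, CD4, CD8A, LEF1 and CCR7) were called lower at 24 h than at 1 h in jugular blood, where 1.13% of all genes and 95 of the 1738 named genes (5.47%) were called lower. The other 4 genes of the list had no name in the tables, which are rich in called genes. TCF7 also had an FDR under 0.05 in both tools, with a log2 fold change of -0.38. Their median log2 fold change was -0.61, with LEF1, a transcription factor of naive T cells, at -0.90 and CD4, the co-receptor of helper T cells, at -0.62. The summed level of the 6 genes ranged from 773 to 1357 CPM in coccygeal blood, from 772 to 1146 in jugular blood at 1 h, from 635 to 1132 at 3-8 h and from 474 to 757 at 24 h, and none was at 0. Within heifers this sum was lower at 24 h by -0.56 ± 0.20 on the log2 scale (SD, n = 5), in 5 of 5 heifers. Taken as a share of the sum, IL6ST was 7.01% ± 1.46 at 1 h and 6.02% ± 0.982 at 24 h in jugular blood (SD, n = 5 each), a log2 difference of -0.21 ± 0.30 within heifers. For OSM the same difference was -0.46 ± 0.69 (SD, n = 5). The part of the T cell markers in the fall of IL6ST and OSM was not tested, and in such bulk samples fewer cells of a type and less RNA per cell cannot be told apart.

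All matched markers of other cells are named here, and 1 was called lower and 1 higher. For comparison, 145 of the 1738 named genes (8.34%) and 361 of all 14018 genes (2.58%) were called in either direction. The monocyte marker CD14 was called lower at 24 h, with a log2 fold change of -0.62, and CD68 had -0.09. The summed level of these 2 genes was 108 ± 28.7 CPM at 1 h and 80.6 ± 6.37 at 24 h (SD, n = 5 each). CD79A, a chain of the B cell receptor, had 504 ± 51.6 CPM at 1 h and 575 ± 85.9 at 24 h (SD, n = 5 each) and was not called. PRF1, the perforin of cytotoxic cells, stood at -0.32 (log2 fold change). Its FDR was under 0.05 in both tools, and it missed the threshold on the fold change only. GATA1, a factor of erythroid cells, had 0.03. GATA2, which mast cells and basophils express, had -2.15 at under 3 CPM (edgeR adjusted p = 0.00739), and DESeq2 gave it no adjusted p. VWF, expressed by endothelium and platelets, was called higher, with a log2 fold change of 0.68.

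Over all 30 libraries, IL6ST and OSM did not follow each other closely. Pearson's r between their log2 CPM was 0.27, Spearman's rho was 0.16, and after the group means were subtracted Pearson's r was -0.10. These correlations and those that follow describe 30 libraries of 5 heifers that share animals and processing. The genes most like each were sought among the 1738 tested genes with a name.

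The 5 genes most like IL6ST were SLK (r = 0.82), a kinase of the STE20 family, GPM6A (r = 0.80), a membrane glycoprotein at a mean of only 1.70 CPM, and CRTAM (r = 0.79), an adhesion molecule of cytotoxic and regulatory T cells, followed by PTGER2 (r = 0.78), a receptor for prostaglandin E2, and PCYOX1 (r = 0.77), an oxidase. After subtraction of the group means these r were between 0.57 and 0.70. The 6 T cell markers had r with IL6ST from 0.46 (CD8A) to 0.76 (LEF1 and CD2), and from 0.18 to 0.55 after subtraction of the group means. The 12 pathway genes ranged from -0.60 (PIAS4) to 0.66 (JAK1). IL7R had 0.61, whereas GAB2, PIM1, BCL6 and IL4R had negative r. After subtraction of the group means JAK1 had 0.35 and IL7R 0.33. The least like IL6ST of the named genes was the B cell gene CD79A (r = -0.72).

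The 5 genes most like OSM were TIAM1 (r = 0.79), an activator of the GTPase Rac1, SEMA4D (r = 0.79), a semaphorin, KCTD12 (r = 0.78), SSH2 (r = 0.77), a phosphatase, and IL2RA (r = 0.77). After subtraction of the group means these r were between 0.71 and 0.74, and without the library of 9.59 CPM they were between 0.68 and 0.75. The gene least like OSM was H2AW, which encodes a histone (r = -0.78). The 6 T cell markers had r with OSM from -0.21 (CD8A) to 0.49 (LEF1), and from -0.60 to 0.29 after subtraction of the group means. The 12 pathway genes ranged from -0.28 (GAB1) to 0.77 (IL2RA). The monocyte markers CD14 and CD68 had 0.38 and 0.44.

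**Figure D4:**
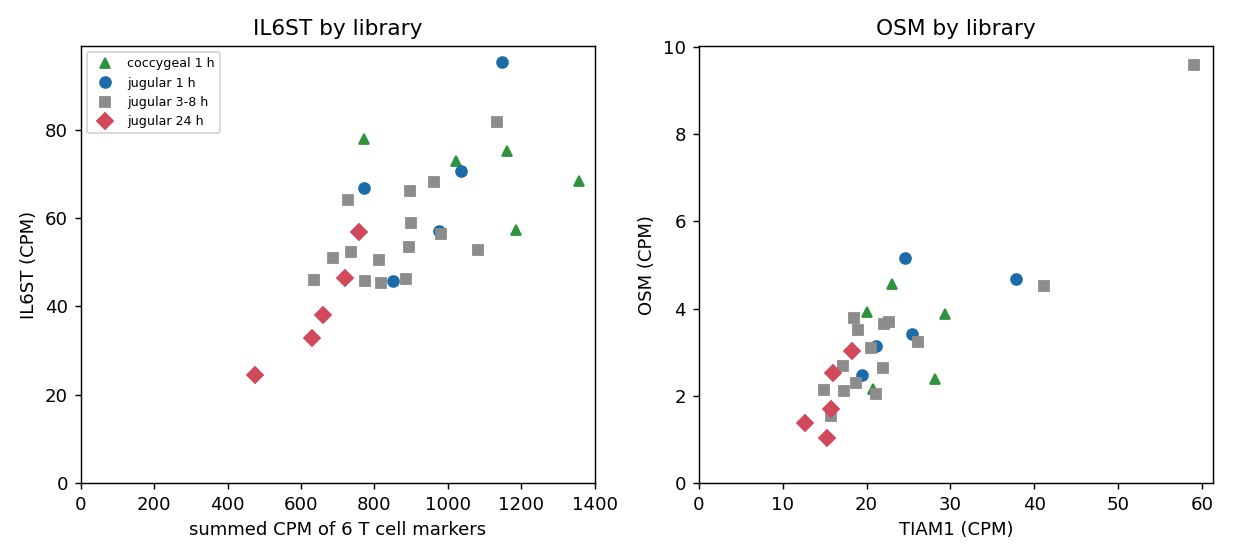
Left, IL6ST against the summed level of 6 T cell markers. Right, OSM against TIAM1. All axes are in CPM from 0, and each symbol is 1 of 30 libraries, with the group given by shape and color. At 24 h the T cell marker sum lies between 474 and 757 CPM, and 1 library of 3-8 h has the highest OSM (9.59 CPM) and TIAM1 (59.0 CPM).

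The 3-8 h library in which OSM was 9.59 CPM was at the upper end for some other genes and at the lower end for others. Its OSM was 3.31 times the median of the other 14 libraries of the group. In the same library TIAM1 was 2.98 times, SSH2 3.86 times, BCL6 6.53 times and GAB2 4.96 times the median of the other 14, and each was the highest of the 15. TIAM1 and SSH2 were picked by their correlation with OSM over libraries that include this one, so their high place partly follows from that choice. BCL6 and GAB2 had the largest ratios of the pathway genes. PIM1, IL4R and IL2RA were the highest of the 15 there too, and how many of all genes were so was not counted. PTPN11 was the lowest of the 15, at 0.790 times that median, and IL7R had 0.721 times and GAB1 0.886 times. The summed monocyte markers were 2.62 times that median and the highest of the 15, whereas the summed T cell markers were 0.714 times and the lowest. IL6ST was 0.866 times the median there, the third lowest of the 15. Its total count was 16481572, within the range of the group. The part of these differences in its OSM level was not tested.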

How the data were processed

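PWBC libraries from 5 heifers were prepared with a stranded mRNA kit. The authors trimmed adapters (cutadapt 2.8), aligned read pairs to ARS-UCD1.2 (HISAT2 2.2.0), removed duplicates and deposited fragment counts per Ensembl gene (featureCounts, Subread 2.0.1), without normalization. Counting ignored the strand, so overlapping or antisense genes cannot be told apart. Group and heifer of columns came from the authors' supplementary code, and 3-8 h columns were those left over.

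The filter kept the 14018 genes whose CPM exceeded 1 in at least 5 of the 30 libraries. Only the libraries being compared entered a fit, made with edgeR 4.0.16 (quasi-likelihood, robust, library-size scaling) and DESeq2 1.42.0 in R 4.3.3. The heifer was a block for coccygeal or 24 h against jugular 1 h, since the same heifers gave both groups. Log2 CPM used a prior count of 2. With the heifer as a block, p-values rest on the spread of the differences within the 5 heifers. Where 3-8 h libraries enter one by one, p-values rest on the spread of single libraries. The steps for 3-8 h and 24 h against jugular 1 h were tested on simulated data with less random spread than estimated from the libraries. No heifer effect was simulated at 3-8 h, so the repeated heifers there were not checked.

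Names, positions and lengths came from supplementary tables, which name 1738 of the genes tested. These tables hold the study's called genes among others, and 145 of the 361 genes called at 24 h have a name. IL6ST, OSM and all gene lists were chosen with earlier results of these data known. Both members, every matched pathway gene, and the 5 most and 1 least correlated genes are named. RNA integrity and sequences were not analysed here. Alternatives were TMM scaling, DESeq2, other filters, the newer edgeR fitting method, all 30 libraries in one fit, no block, single tools, no fold threshold, and leaving out single libraries or heifers.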

Additional observations from a re-analysis of the deposited data

Results flagged for a closer look

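In the groups of 5 libraries, 67 sets of 5 values were checked for a library far from the others, by whether the gap to its neighbour took more than 0.71 of the whole range, and 7 were marked. Chance marks about 1 in 20 such sets, and no set of IL6ST or OSM levels or differences was among the 7.

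The library of heifer A is the one that stood apart in 6 of the 7. In jugular blood at 1 h it had 111.9 CPM of GAB2 (next highest 52.4), 227 CPM of BCL6 (next highest 75.5) and 157 CPM of summed monocyte markers (next highest 106). At 24 h heifer A had 52.8 CPM of GAB2 (next highest 45.1), 1.1 CPM of GATA2, the mast cell and basophil marker (next highest 0.505), and 183 CPM of VWF, the endothelial marker (next highest 97.5). In the remaining set, heifer B was low, with 6.39 CPM of GAB1 in jugular blood at 1 h, where the next lowest had 9.83. Heifer A also had the largest fall of OSM at 24 h, and without that heifer the log2 fold change of OSM was -0.70 in place of -0.98. The part of these levels in the OSM difference was not tested.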

How the results depend on the processing

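The log2 fold changes of IL6ST kept their sign under all 12 alternatives of each of the 5 comparisons, and those of OSM did so in 4 comparisons. The comparisons with the libraries of 24 h share these libraries with the choice of the genes. A kept sign in those comparisons is therefore no separate support. For OSM at 3-8 h against coccygeal blood, a difference near 0, the value was 0.0056 in DESeq2 and 0.0027 with TMM scaling, and it ranged from -0.14 to 0.12 with 1 coccygeal library left out. In the 3 comparisons that were tested, the lowest adjusted p for IL6ST or OSM over all alternatives was 0.995 in edgeR. Without the replicate block, the log2 fold change between veins was 0.07 for IL6ST and -0.15 for OSM, and at 24 h against 1 h it was -0.76 and -0.96. At 24 h against 1 h the number of genes called was 1301 with no threshold on the fold change, 30 without the block and, in a setting added after seeing the data, 156 without heifer A. The count of pathway genes called there was 0 without the block. At 24 h against 3-8 h, 57 genes were called with no threshold on the fold change. Of the 5 genes most like IL6ST, 2 were shared with Spearman's rho and 1 after subtraction of group means, and for OSM 2 and 2 were shared. OSM had as few as 17 counts in a library, which limits how small a change could be detected.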
